A study of Mus musculus with 2 samples.

Results

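The oligoadenylate synthetase (OAS) family of the mouse uterus was followed in 7 genes, Oas1a, Oas1c, Oas1g, Oas2, Oas3, Oasl1 and Oasl2, which were chosen by name from the 20634 genes listed for each library. The genes had been chosen for their shared function, with earlier results of these data known. RNA-seq libraries were made from total RNA of whole uterus on gestational day 4, counting the day of the vaginal plug as day 1, from females of 6 to 8 weeks mated with fertile males. One library was labelled Mettl3 f/f and the other Mettl3 ed/ed, with 1 library per genotype. The protein of Mettl3 is the active enzyme of the complex that places N6-methyladenosine on RNA. The number of animals behind each library, the meaning of the genotype letters and the promoter or cell type of any recombinase are not in the labels. No replicate check was possible, so every difference is one between these libraries, and no p-value was computed.

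OAS enzymes bind double-stranded RNA in the cytosol and respond by joining ATP into short chains linked from the 2′ to the 5′ carbon, called 2-5A. These chains act as second messengers of the antiviral response. The genes are classic targets of interferons, signals that reach the nucleus through JAK kinases and STAT proteins and act on promoter elements rich in GAAA. In uterus at this stage of pregnancy, epithelium, stroma, muscle, vessels and immune cells all contribute RNA, and fewer cells of a type cannot be told apart from less RNA per cell.

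Oas2, Oasl1 and Oas3 had the highest ratios of ed/ed to f/f, Oas1g, Oasl2 and Oas1a had smaller ones, and Oas1c had almost the same value in both libraries. On the scale of log2(FPKM + 1), where FPKM is fragments scaled to transcript length and library size, 3 of the 7 genes passed 2-fold towards ed/ed, 0 passed it towards f/f and 4 did not reach it. The background was 12165 genes with 1 FPKM or more in f/f or ed/ed, of which 2.68% passed 2-fold towards ed/ed and 6.22% towards f/f. By a 1.5-fold rule, 5 OAS genes were higher in ed/ed, beside 7.04% of the background. The median log2 ratio of the 7 genes was 0.95, and that of all genes compared was -0.26. All 7 OAS genes lay above the latter. The log2 ratio was above 0 in 6 of the 7, and in 29.6% of all genes compared. The summed FPKM of the family was 83.1 in f/f against 169 in ed/ed, a ratio of 2.03.

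**Figure D1:**
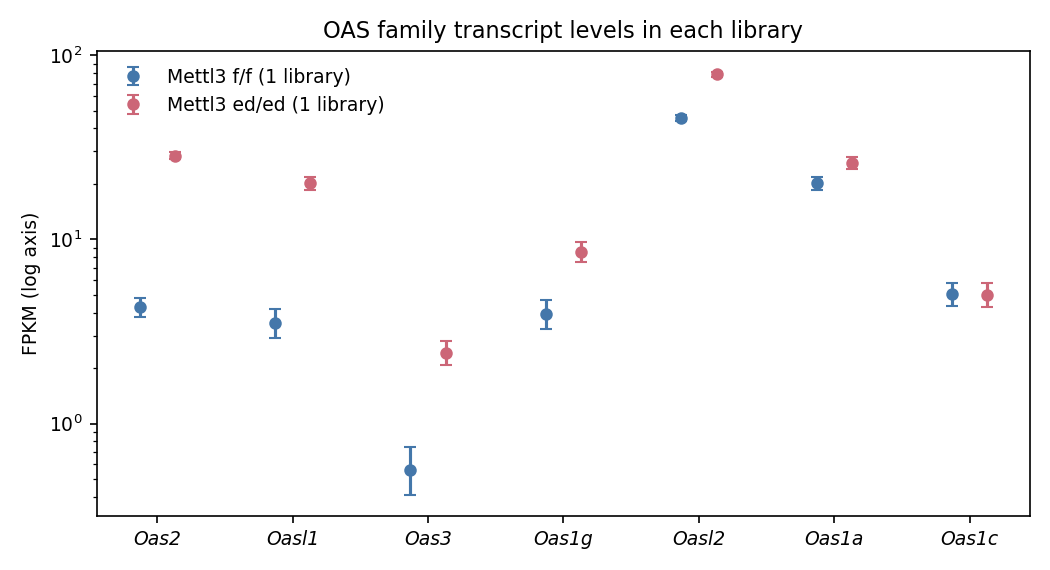
FPKM of each OAS gene (log axis) in the f/f library (blue) and the ed/ed library (red), ordered by the ratio of both; bars are 95% counting intervals from estimated fragments and hold no spread between animals. Oas2 and Oasl1 stand near 4 FPKM in f/f and above 20 FPKM in ed/ed, while both points of Oas1c lie at about 5 FPKM.

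Oas2 encodes a synthetase built of tandem OAS units and lies, like the other members, on chromosome 5 (120730333 to 120749853, GRCm38, minus strand). Its level was 4.29 FPKM in f/f against 28.4 FPKM in ed/ed. This was a ratio of 6.63 (95% counting interval 5.86 to 7.53), from an estimated 291 and 1824 fragments, and the log2 ratio was 2.48. Only 0.115% of all genes compared had a higher log2 ratio. Oas2 was the fourth most abundant OAS gene in f/f and the one next to Oasl2 in ed/ed. Its share of the summed OAS FPKM was 5.17% in f/f against 16.8% in ed/ed.

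Oas3, the longest of the family, encodes a synthetase with further OAS units and a preference for long double-stranded RNA (120753098 to 120777661, minus strand). It was the least abundant of the 7 genes in both libraries, at 0.562 FPKM in f/f against 2.42 FPKM in ed/ed. The ratio was 4.31 with a counting interval of 3.10 to 6.08, from an estimated 46 and 187 fragments. Because its level in f/f was below the pseudocount of 1 FPKM, the log2 ratio of 1.13 understated the ratio of the FPKM values.

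Oasl1 and Oasl2 encode OAS-like proteins that end in ubiquitin-like domains. Oasl1 lacks synthetase activity and is known as a repressor of the translation of Irf7, the interferon master regulator, whereas Oasl2 has kept the activity. Oasl1 (114923240 to 114937915, plus strand) was at 3.52 FPKM in f/f against 20.1 FPKM in ed/ed. This was a ratio of 5.71 (interval 4.73 to 7.001) and a log2 ratio of 2.22. Oasl2 (114896936 to 114912234, plus strand) was the most abundant of the family in both libraries, at 45.6 FPKM in f/f against 78.6 FPKM in ed/ed. Its ratio was 1.72 (interval 1.64 to 1.81), and its log2 ratio of 0.77 lay within 2-fold. Oasl2 was therefore 12.9 times as abundant as its neighbour Oasl1 in f/f and 3.91 times in ed/ed, in FPKM. Its share of the summed OAS FPKM was 54.9% in f/f against 46.5% in ed/ed.

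The OAS1 genes encode the smallest proteins of the family, and the mouse carries several copies in a row. Oas1a (120896256 to 120907521, minus strand) was at 20.2 FPKM in f/f against 25.9 FPKM in ed/ed, with a ratio of 1.29 and a counting interval of 1.15 to 1.43. Oas1g (120876142 to 120887613, minus strand) was at 3.91 FPKM in f/f against 8.50 FPKM in ed/ed, a ratio of 2.17 with an interval of 1.74 to 2.71. The log2 ratio of Oas1g was 0.95, just inside 2-fold, and that of Oas1a 0.35. These genes are near copies. Their coding sequences, both of 1101 nt, were 96.7% identical, and 57.6% of the 50-nt stretches of the Oas1a transcript also occurred in transcripts of other genes, all of which were matched by Oas1g. For Oas1g the share was 54.7%. The sources used here do not say how reads that match both were divided, so the split between Oas1a and Oas1g is uncertain. Summed, both genes were at 24.1 FPKM in f/f against 34.4 FPKM in ed/ed. No 50-nt stretch of Oas2, Oasl1 or Oasl2 was found in another gene's transcripts.

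Oas1c (120800194 to 120812514, minus strand) was at 5.03 FPKM in f/f against 5.004 FPKM in ed/ed. The ratio was 0.994 (interval 0.807 to 1.23), from an estimated 188 and 177 fragments. Its log2 ratio of -0.01 lay above 0 under 5 of the 7 other settings of scale, pseudocount and length, with a highest value of 0.28, so it has no direction here. It shared 16.3% of its 50-nt stretches with other genes, and its coding sequence was 75.5% identical to that of Oas1a. The remaining OAS1 copies of the list were near or at 0. Oas1d and Oas1f were listed at 0 in both libraries, Oas1e was listed at 0 in f/f and at 0.0794 FPKM in ed/ed, and Oas1h was at 0.154 and 0.166 FPKM. Oas1b was not analysed here.

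In f/f the order of levels was Oasl2, Oas1a, Oas1c, Oas2, Oas1g, Oasl1 and Oas3. Each of Oas1c, Oas2, Oas1g and Oasl1 had a counting interval that overlapped that of its neighbour in this order, so neighbours among these 4 genes were not separated beyond counting error. In ed/ed the order was Oasl2, Oas2, Oas1a, Oasl1, Oas1g, Oas1c and Oas3, and the intervals of Oas2 and Oas1a alone overlapped among neighbours. By ratio, the intervals of Oas2, Oasl1 and Oas3 overlapped in turn, as did those of Oas1g and Oasl2 and those of Oas1a and Oas1c. The interval of Oas3 did not reach that of Oas1g, nor that of Oasl2 that of Oas1a. These intervals cover counting error only.

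**Figure D2:**
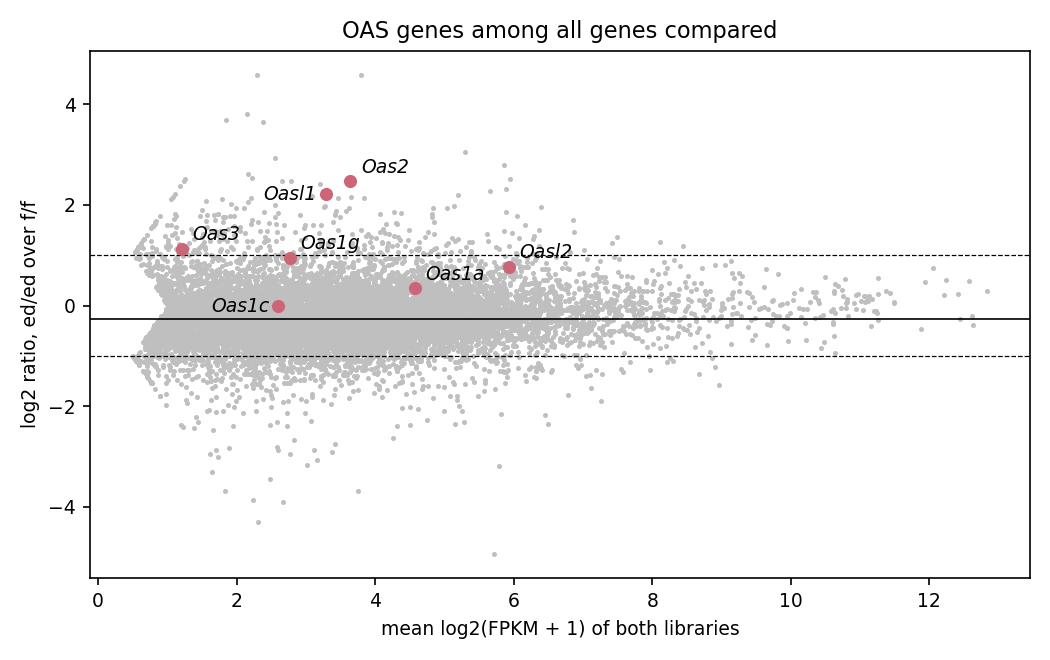
Log2 ratio of ed/ed over f/f against mean log2(FPKM + 1) for the 12165 genes compared (grey) and the OAS genes (red), with dashed lines at 2-fold and a solid line at the median of all genes, -0.26. Oas2 and Oasl1 lie near the upper edge of genes of their level, and Oas1c within the main body.

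The position of the genes and the letters before their start sites are shown because members of one cluster differed in their ratios. Oas2, Oas3 and the OAS1 genes lie in a row over 177 kb of chromosome 5 (120730333 to 120907521), and Oasl2 and Oasl1 side by side 5.79 Mb away (114896936 to 114937915). Within the larger cluster Oas1c, between Oas3 and Oas1g, was the member with near-equal values in both libraries. Of the 7 flanking genes within 250 kb of the larger cluster that were expressed, 0 were 2-fold higher and 0 lower, with log2 ratios from -0.68 (Plbd2) to 0.38 (Ddx54). Dtx1, which follows Oas2, was at 2.53 FPKM in f/f against 2.09 in ed/ed. Of the 11 expressed genes flanking Oasl2 and Oasl1, 0 passed 2-fold in either direction, with log2 ratios from -0.88 (Mlec) to 0.17 (Acads). Over all genes compared, 2.68% passed 2-fold towards ed/ed and 6.22% towards f/f. At these shares few or none of 7 or 11 genes would pass, so the counts of 0 do not set the flanking genes apart.

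**Figure D3:**
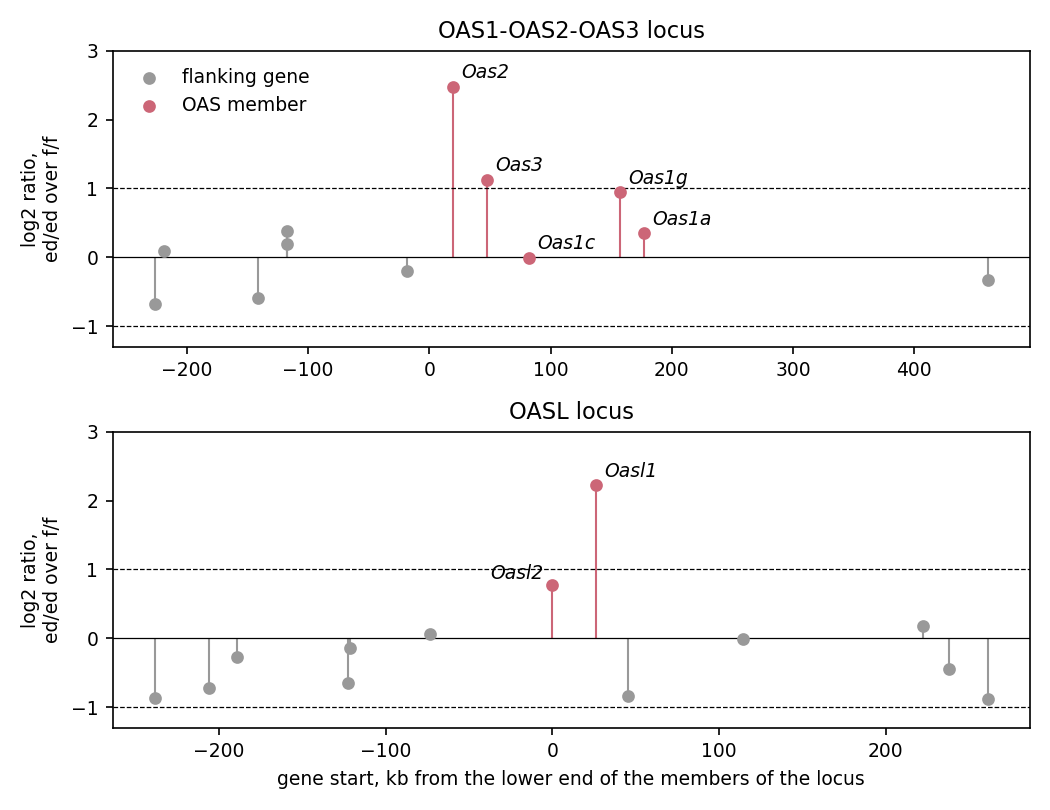
Log2 ratio of ed/ed over f/f for expressed genes at the cluster of Oas1, Oas2 and Oas3 genes (top) and at Oasl2 and Oasl1 (bottom), against the distance in kb of each gene's start from the lower end of the OAS genes there. OAS genes are red and flanking genes grey, dashed lines mark 2-fold, and no flanking gene passes them. Of all genes compared, 2.68% passed the upper line and 6.22% the lower one.

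Promoter windows came from RefSeq (GRCm38.p6), which matched 6 of the 7 genes; Oas2 is the one without an entry. The core of the interferon-stimulated response element was searched as GAAANNGAAA on both strands in the 250 bases before each start site. It was present in 4 of these 6 genes, Oas1a, Oas1c, Oas1g and Oas3, and in 2.98% of all 32851 promoter windows. The 130 bases before the start are printed for these genes and for Oasl1, which had the highest ratio among those with an entry and no match, each 5′ to 3′ on the strand of the gene, with matches in capitals.
Oas1a: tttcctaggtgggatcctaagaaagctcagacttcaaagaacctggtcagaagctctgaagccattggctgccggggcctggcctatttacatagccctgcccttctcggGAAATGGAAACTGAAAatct
Oas1g: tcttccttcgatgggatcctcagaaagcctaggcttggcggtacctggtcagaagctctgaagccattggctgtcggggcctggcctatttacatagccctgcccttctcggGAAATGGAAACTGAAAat
Oas1c: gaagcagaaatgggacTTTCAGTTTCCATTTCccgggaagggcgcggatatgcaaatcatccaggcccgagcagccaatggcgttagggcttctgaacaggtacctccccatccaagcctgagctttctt
Oas3: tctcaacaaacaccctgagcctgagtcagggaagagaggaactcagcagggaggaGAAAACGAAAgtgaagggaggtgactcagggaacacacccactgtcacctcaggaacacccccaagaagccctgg
Oasl1: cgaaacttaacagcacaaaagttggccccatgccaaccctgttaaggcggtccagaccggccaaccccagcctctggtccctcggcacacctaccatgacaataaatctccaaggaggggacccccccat
These windows are chr5:120907526-120907655 for Oas1a, chr5:120887614-120887743 for Oas1g, chr5:120812515-120812644 for Oas1c, chr5:120777660-120777789 for Oas3 and chr5:114923110-114923239 for Oasl1. A match is a description of letters and not a bound site.

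In Oas1a and Oas1g a pair of overlapping matches made up the 16 bases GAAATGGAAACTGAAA, at -20 to -5 and at -18 to -3 from the start. The 250 bases before both genes were 86.9% identical over 244 aligned bases. Oas1c carried the same 16 bases on the opposite strand, farther from its start, at -114 to -99. The level of Oas1c was near-equal in both libraries, while that of Oas1g was 2.17 times as high in ed/ed and that of Oas1a 1.29 times. The counting intervals of the Oas1a and Oas1c ratios overlapped, and the split between Oas1a and Oas1g is uncertain. Whether the place or strand of the 16 bases bears on the ratios was not tested. These 16 bases occurred on either strand in 7 of the 32851 windows, which belong to 5 genes, the other ones being Apol9a and Apol9b, which encode apolipoproteins of the L family, are close paralogs and were named here after their values were seen. Apol9a was at 7.20 FPKM in f/f against 18.5 in ed/ed, and Apol9b at 5.31 and 23.1. The core of the gamma-activated site, TTCNNNGAA, was found at -98 to -90 of Oas1a, in no other of the 6 genes, and in 7.02% of all windows.

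Of the 5 genes listed for the breakdown and inhibition of 2-5A signalling, 0 were 2-fold higher and 0 lower. Over all genes compared the shares were 2.68% and 6.22%, so counts of 0 among 5 genes do not set the list apart. The median log2 ratio of the list was 0.16, against -0.26 over all genes. Abce1, an ATPase that recycles ribosomes, was at 28.5 FPKM in f/f against 23.6 in ed/ed. Pde12, a phosphodiesterase that degrades 2-5A, was at 6.17 and 7.03 FPKM. Both lay within 2-fold. Akap7, whose long form can cleave 2-5A, was at 5.05 and 5.82 FPKM, and the ectonucleotidase gene Enpp1 at 6.69 and 5.403 FPKM. Cnp, a phosphodiesterase gene best known from myelin, had the largest ratio of the list, at 45.7 FPKM in f/f against 74.1 in ed/ed.

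The ratios of the OAS genes were set beside those of other genes of the interferon pathway, from lists made with earlier results of these data known. Among interferon ligands, Ifnb1, Ifna2, Ifna4, Ifnl2 and Ifnl3 were listed at 0 in both libraries. Ifne, an interferon made by the epithelium of the reproductive tract, was at 3.93 FPKM in f/f against 2.21 in ed/ed, a ratio of 0.562 with a counting interval of 0.287 to 1.07. Of the 7 ligand and receptor genes expressed, 0 passed 2-fold, beside 2.68% of all genes compared towards ed/ed and 6.22% towards f/f. At these shares few or none of 7 genes would pass. Their median log2 ratio was -0.36, against -0.26 over all genes. Ifnar1, a chain of the type I receptor, was at 14.1 and 10.1 FPKM, Ifngr1 of the type II receptor at 21.8 and 13.2, and Ifnlr1 of the type III receptor at 3.84 and 5.64.

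Of 17 genes of interferon signal transduction, 0 were 2-fold higher and 1 was 2-fold lower, with a median log2 ratio of 0.03. The lower one was the kinase gene Jak2, at 128 FPKM in f/f against 53.3 in ed/ed, and Jak1 was at 38.5 and 23.8. Stat2, a subunit of the transcription factor ISGF3 that binds the response element, was at 11.8 FPKM in f/f against 23.1 in ed/ed, with a log2 ratio of 0.92. Its partner Irf9, named after its value was seen, had a lower ratio, at 42.1 and 39.9 FPKM. Irf5 was at 1.93 and 3.61 FPKM.

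Core interferon targets were mixed. Of 34 expressed, 6 were 2-fold higher and 1 lower, with a median log2 ratio of 0.08, and 26 lay above the median of all genes. The higher ones included the ubiquitin-like modifier gene Isg15, at 41.5 FPKM in f/f against 164 in ed/ed, and Ifit1, whose protein binds foreign RNA ends, at 13.5 and 54.7. The chaperone gene Rtp4 was at 34.9 and 122 FPKM and the antiviral GTPase gene Mx1 at 1.32 and 4.65. Oas2 and Oasl1 had higher log2 ratios than all 34 of these genes, and 20 of the 34 had a higher one than Oas1c. Ifit2, chosen after its value was seen, was at 4.35 and 4.26 FPKM, and the lower gene of the list was the GTPase gene Iigp1 at 11.6 and 4.65.

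Among the 14 expressed genes for sensors of double-stranded RNA and their adaptors, 0 were 2-fold higher and 0 lower. Over all genes compared the shares were 2.68% and 6.22%, at which few or none of 14 genes would pass. The median log2 ratio of the list was -0.07, and 11 of the 14 lay above the median of all genes, -0.26. Zbp1, a sensor of Z-form nucleic acid, was at 8.68 FPKM in f/f against 15.8 in ed/ed, and Tlr3, the endosomal receptor, at 6.51 and 10.9. The RNA helicase gene Dhx9 was at 41.0 and 24.9 FPKM, and Prkra, which encodes an activator of the kinase PKR, at 24.8 and 17.5 FPKM. The cytosolic sensors Ddx58 and Ifih1, named after their values were seen, were within 2-fold. Ddx58, which encodes RIG-I, was at 54.6 and 48.0 FPKM, and Ifih1, which encodes MDA5, at 4.54 and 4.27.

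**Figure D4:**
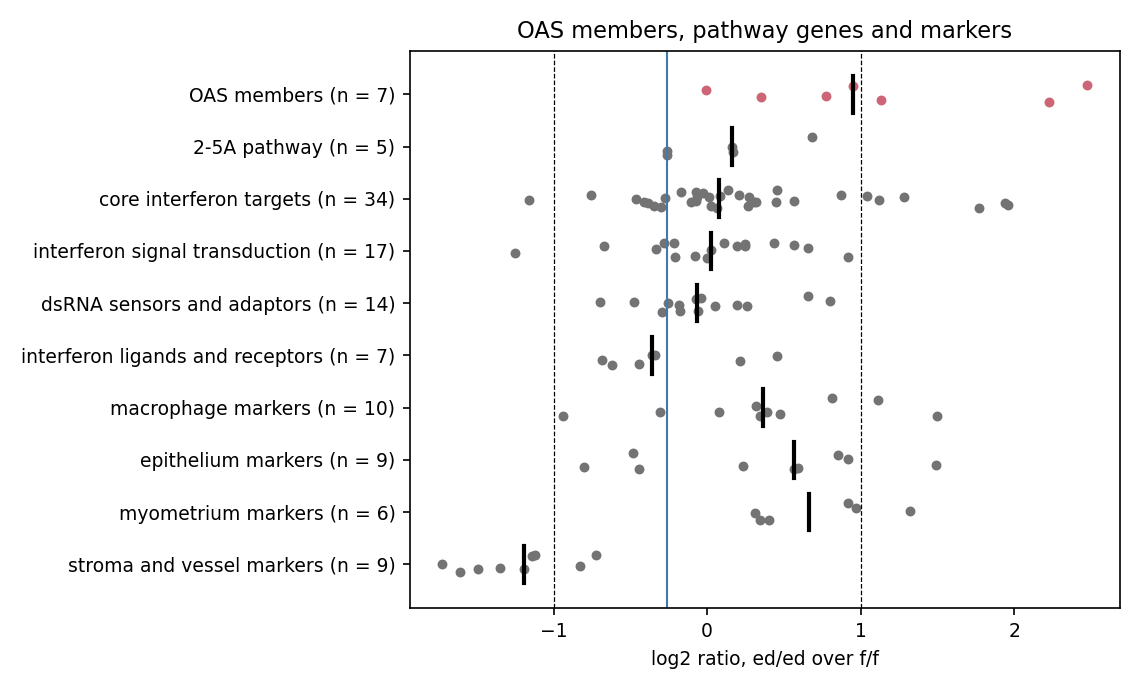
Log2 ratio of ed/ed over f/f for each expressed gene of the OAS family (red), of pathway lists and of cell type marker lists (grey), with black bars at list medians, dashed lines at 2-fold and a blue line at the median of all genes. The OAS median of 0.95 stands to the right of the other lists shown. Of 34 core interferon targets 6 pass the upper line, beside 2.68% of all genes compared.

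The genes nearest to Oas2 in the plane of log2(FPKM + 1) of both libraries were Oit1, Cyp26a1, Ncald, Apol9b and Gal3st1, at distances from 0.22 to 0.44. This likeness rests on 2 values per gene. Oit1, the nearest, was at 4.95 FPKM in f/f against 25.7 in ed/ed, and Cyp26a1, an enzyme gene of retinoic acid clearance, at 4.22 and 22.1.

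Marker genes of cell types also differed between the libraries. All 9 epithelium, all 6 myometrium and all 9 stroma and vessel markers were expressed, as fits whole uterus. The 12 macrophage markers summed to 168 FPKM in f/f against 320 in ed/ed, with 2 of the 10 expressed 2-fold higher, Lyz2 at 86.6 and 188 FPKM and Aif1 at 7.27 and 22.3. Lyz2 alone held the largest part of both sums. The log2 ratio was above 0 in 8 of the 10 expressed and below 0 in 2, Fcgr1 at 1.29 and 0.198 FPKM and Csf1r at 3.97 and 3.02 FPKM. Cd163 was listed at 0 in both. The 9 stroma and vessel markers summed to 587 and 257 FPKM, with 7 at least 2-fold lower, and as few as 3 under other settings of scale and length. The 6 myometrium markers summed to 470 and 792 FPKM, with 1 at least 2-fold higher, Cnn1, at 48.2 and 122 FPKM. The 9 epithelium markers summed to 1790 and 1830 FPKM, but their members went both ways. Krt8, Krt18 and Krt19 had ratios of 0.715, 0.736 and 0.572, the other 6 had ratios above 1, the median log2 ratio was 0.56, and 1 passed 2-fold, Foxa2, at 0.924 and 4.396 FPKM. Dendritic cell markers summed to 45.3 and 29.8 FPKM, of which Tcf4, a gene not limited to these cells, held 38.9 and 24.7. Of the 3 expressed, 1 had a log2 ratio above 0, Itgax at 0.866 and 1.52 FPKM. The other 2 were below 0, Tcf4 and Zbtb46, the latter at 3.94 and 2.13 FPKM. The remaining 5 of the 8 were under 1 FPKM in both libraries. Sums were 14 and 14.9 for lymphocyte and natural killer markers, where 2 of the 4 expressed had log2 ratios above 0 and 2 below. Neutrophil markers summed to 5.81 and 3.75, with 2 of the 5 expressed above 0 and 3 below. S100a9, at 0 and 1.245 FPKM, was called higher, and Retnlg, at 1.74 and 0.172, lower. Embryo, trophoblast and ovary markers summed to 6.42 and 9.14. The 3 expressed were Elf5 at 3.47 and 4.74 FPKM, Star at 0.667 and 2.29 and Eomes at 1.06 and 0.854. Nanog, Pou5f1, Cdx2 and Zp3 were listed at 0 in both. Cd79a and Elane were at 0 as well. The part of these differences in the OAS ratios was not tested. Mettl3 itself was at 10.6 FPKM under the f/f label and 10.2 under ed/ed, so its level did not separate the labels.

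Scale and transcript length bore on the smaller ratios. Scaling by the upper quartile, the median ratio or reference genes multiplied ed/ed by 1.17, 1.21 or 1.27 and placed the median log2 ratio of all genes at -0.06, -0.01 or 0.04, against -0.26 as deposited. The share of higher genes among those past 2-fold was 30.1% as deposited and 53.7%, 59.4% and 65.6% under these scalings. The number of OAS genes at least 2-fold higher was then 4, 5 and 5, beside 4.24%, 4.75% and 5.43% of all genes expressed. Ratios over all genes were lower for longer transcripts, and genes as long as the Oas2 and Oas3 transcripts (3961 and 4720 nt) had a trend value of -0.29 and -0.33. With that trend removed, which also centres all genes near 0, the log2 ratio was 2.77 for Oas2, 2.42 for Oasl1, 1.46 for Oas3, 1.13 for Oas1g, 1.02 for Oasl2, 0.52 for Oas1a and 0.20 for Oas1c.

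**Figure D5:**
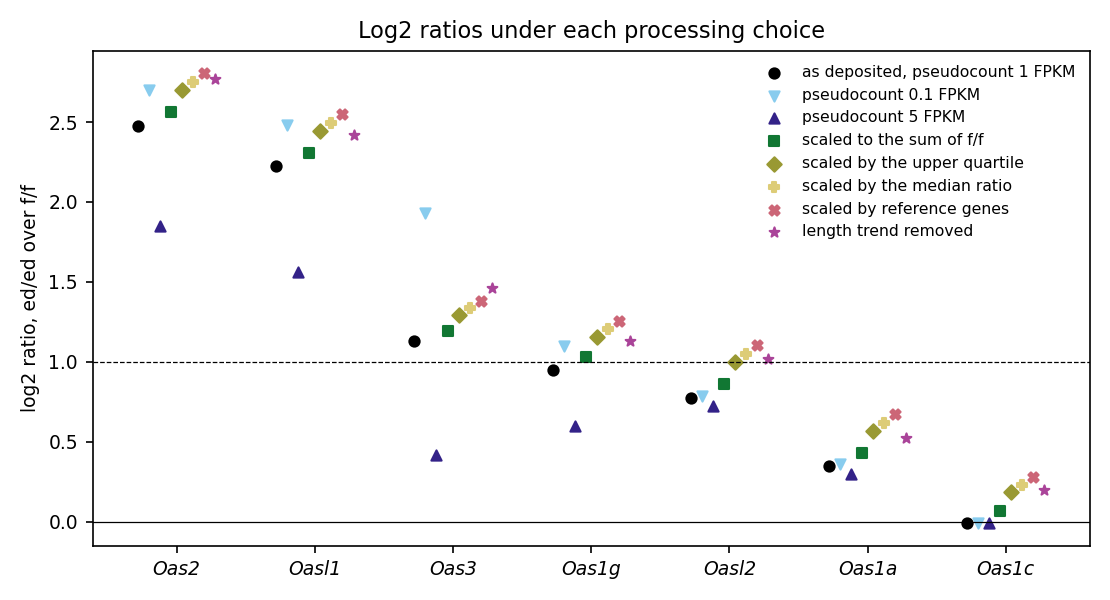
Log2 ratio of ed/ed over f/f for each OAS gene with values as deposited (black) and under 7 other settings (colours and shapes), with a dashed line at 2-fold. Oas2 and Oasl1 lie above the dashed line in every setting, and Oas1a and Oas1c below it.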

How the data were processed

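The deposited tables give 1 value per gene and library, taken as FPKM. Per the submitters' processing notes, the authors used HISAT2 2.2.1 and Cufflinks 2.2.1. The FPKM unit is inferred from the tool and the values, since the header names none. Those notes name builds mm9 and mm10 without a role, so GENCODE M21 coordinates (GRCm38) locate genes and not reads. The sources used here do not give the annotation, strandedness or treatment of multi-mapping reads.

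Genes reaching 1 FPKM in at least 1 library were compared by the log2 ratio of ed/ed to f/f after a pseudocount of 1 FPKM, which understates low genes. A fold of 2 was called by size, with no test. Fragments were estimated from the spacing of low values in genes with 1 transcript over 1000 nt (length less 250 nt, an assumption), giving 18300000 (f/f) and 17300000 (ed/ed) fragments. Counting intervals are exact binomial for ratios and exact Poisson for levels, at 95%. Values at exact multiples of 1 fragment would give a mean cosine of 1 at that spacing, and these gave 0.413 (f/f) and 0.434 (ed/ed), so fragment numbers and counting intervals are approximate.

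Members and 14 gene lists were chosen with earlier results of these data known. Some listed genes are not reported here, and counts are without them. Named list genes are all of the 2-5A list and other OAS1 copies, and up to 4 of the largest absolute log2 ratios in each other pathway list. Also named are the 5 genes nearest to Oas2, genes within 250 kb of the loci, and Mettl3. Python 3.11.15, scipy 1.17.1, statsmodels 0.14.6 (lowess, fraction 0.3) and Biopython 1.88 were used. Alternatives were pseudocounts of 0.1 and 5 FPKM, 4 scalings, removal of the length trend, no filter or one at 5 FPKM, and a 1.5-fold rule.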

Additional observations from a re-analysis of the deposited data

How the results depend on the processing

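Oas2 had the highest and Oas1c the lowest log2 ratio of the 7 OAS genes, and Oasl1 came next to Oas2, in all 8 settings of pseudocount, scale and length. Across the 7 alternatives the log2 ratio ranged from 1.85 to 2.81 for Oas2, 1.56 to 2.55 for Oasl1, 0.42 to 1.93 for Oas3, 0.60 to 1.26 for Oas1g, 0.72 to 1.11 for Oasl2 and 0.30 to 0.68 for Oas1a. Oas3 was below 2-fold with a pseudocount of 5 FPKM alone, and Oas1g reached 2-fold in 6 of the 7. OAS genes at least 2-fold higher numbered 3 as deposited, beside 2.68% of all genes compared. They numbered 5 after median-ratio scaling (beside 4.75%), reference-gene scaling (5.43%) and removal of the length trend (4.32%). With the 1.5-fold rule 5 were higher, beside 7.04%. With a pseudocount of 5 FPKM 2 were higher, beside 0.92%, and with the filter at 5 FPKM 2 were, beside 2.40%. That filter left out Oas3, which was below 5 FPKM in both libraries. All genes that were higher and lower numbered 489 and 1336 with a pseudocount of 0.1 FPKM, 112 and 207 with 5 FPKM, 583 and 398 by median ratio, 519 and 447 by upper quartile, 667 and 350 by reference genes, 525 and 347 without the length trend and 856 and 2850 by the 1.5-fold rule. Core interferon targets that were higher numbered 3 with a pseudocount of 5 FPKM. Those that were lower numbered 0 with that pseudocount, under these 3 scalings and without the length trend, and 2 by the 1.5-fold rule. Genes of interferon signal transduction that were higher and lower numbered 1 and 0 by median ratio, by reference genes and without the length trend. Stroma and vessel markers that were lower numbered 4 under these 3 scalings and 3 without the length trend. Under the same scalings and without that trend, 3 epithelium and 3 myometrium markers were higher. No paired analysis was possible because each genotype has 1 library, and no library could be left out. Depth limits Oas3 most, at an estimated 46 fragments in f/f.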

Other observations

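Sites of N6-methyladenosine often lie in the letters GGACT, which were counted in the longest coding transcript of each gene, on the transcript's strand. Oas2 and Oas3 held 5 each, Oasl1 and Oasl2 held 3 each, Oas1a and Oas1g held 1 each and Oas1c held 0. Per kilobase this was 1.26 in Oas2, 1.06 in Oas3, 1.38 in Oasl1, 0.961 in Oasl2, 0.531 in Oas1a and 0.506 in Oas1g, beside a median of 1.05 over 12158 expressed genes. Of these genes, 31.3% had more per kilobase than Oasl1 and 80.9% more than Oas1a. The count says nothing of whether a site is methylated, which was not measured.

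Of 317 expressed genes with GAAANNGAAA on either strand of the RefSeq promoter window, 16 (5.05%), including Oas3, passed 2-fold towards ed/ed. Towards f/f 11 of the 317 passed 2-fold, beside 6.22% of all genes compared. The median log2 ratio of the 317 was -0.19. Of 9418 expressed genes with a window and no match, 234 (2.48%) passed it towards ed/ed, with a median of -0.26. The difference was not tested.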
